A study of Mus musculus with 27 samples.

Results

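Primed Pluripotency is a state of mouse embryonic stem cells (mESCs) that held 1396 of the 4147 mESCs profiled, or 33.7%. Its members were all cells that the authors' Leiden clustering, which groups cells by shared neighbours in gene expression, had placed in cluster 0 (961 cells) or cluster 5 (435 cells). No other cell carried the deposited name of this state. The markers given for the state were Dnmt3b, Fgf5 and Otx2. The values used here were per cell and not per gene, so the label was not checked against these markers, and no gene level was analysed here.

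Pluripotent cells can give rise to every tissue of the embryo. Naive and ground state cells resemble the epiblast of the early blastocyst, and primed cells resemble the epiblast after implantation, shortly before germ layers form. The DNA methyltransferase Dnmt3b, the growth factor Fgf5 and the homeobox factor Otx2 are known to rise on the way to the primed state. Serum with leukaemia inhibitory factor keeps mESCs in a mixed state, and inhibition of the kinases MEK and GSK3 moves them towards the ground state.

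All mESCs were of 1 line (B6), with the genotype 129S1/SvImJ / C57BL/6. They differed in the hours spent in each of a pair of media. ESLIF holds serum and leukaemia inhibitory factor, and 2i is serum-free, with the same factor and inhibitors of MEK and GSK3. Condition 1 was never moved to 2i. Cells were in 2i up to collection for 96 h in condition 2, 48 h in condition 3 and 24 h in condition 4. Condition 5 was given 2i for 48 h and returned to ESLIF for 48 h, and condition 6 was given 2i for 24 h and returned to ESLIF for 24 h. Every condition was 1 culture, sorted into 2 plates of 384 wells for CEL-seq2, so that the plates of a condition are technical replicates and p-values over plates measure technical spread only.

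The 12 plates kept 284 to 365 cells each, from 8696308 to 33458578 sequenced reads. The fewest reads belonged to plate 2 of condition 6, where the median total count per cell over all cells was 7640, against 11872 to 13669 on the other 3 plates of conditions 5 and 6. A cell's name carries a plate and a number from 1 to 384. What the number stands for is not given in the sources used here. Of the 383 numbers in use, 379 occurred on 2 or more plates and 145 on all 12.

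Primed cells made up almost all of the mESCs that had left 2i for ESLIF. Their share was 98.4% (359 of 365 cells, 95% Wilson interval 96.5 to 99.2) and 96.6% (345 of 357, 94.2 to 98.1) on the plates of condition 5. On the plates of condition 6 it was 96.1% on both (345 of 359, 93.6 to 97.7, and 295 of 307, 93.3 to 97.8). Condition 1, which had never seen 2i, held 26 members on plate 1 (7.39%, 5.09 to 10.6) and 12 on plate 2 (3.47%, 1.99 to 5.96). Conditions 2, 3 and 4, collected in 2i, held 14 in all. Plate 1 of condition 3 had no member, which allows a share of up to 0.824%. Intervals and limits given here cover counting error only.

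The members outside conditions 5 and 6 had lower median counts than those in conditions 5 and 6. The median total count was 3912 in the 38 members of condition 1 and 798.5 in the 14 members from 2i, against 12318 in the 704 members of condition 5 and 10006 in the 640 of condition 6. All 11 cluster 5 cells from 2i held at most 1655 counts. Among cells under 1000 counts, the share named Primed Pluripotency was 83.9% (47 of 56) in conditions 5 and 6, 27.6% (8 of 29) in condition 1 and 6.25% (8 of 128) in the 2i conditions. Among cells with 2500 counts and over it was 97.7% (1227 of 1256), 3.82% (23 of 602) and 0.115% (2 of 1737). The state was thus separated between conditions more sharply in cells of more counts.

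On plate 1 of condition 1, the 26 members had a median of 4946 counts, 7.89% mitochondrial reads and an S score of 0.0294. The 319 cells of Ectoderm Priming on the same plate, the main state of condition 1, had 6942 counts, 6.46% and 0.0431. On plate 2, the 12 members had 1212 counts, 9.79% and 0.0445, against 8113 counts, 8.03% and 0.0387 in 324 cells. Members thus had fewer counts and a larger mitochondrial share than the Ectoderm Priming cells on both plates, while the S score differed in opposite directions. Their lower counts move with these values, and the part of depth in them was not tested.

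On the deposited UMAP, a map that places cells of like expression close together, members lay among themselves. Of the 15 nearest neighbours of a member, 98.7% were members, 0.860% were Ectoderm Priming cells and 0.153% were cells of Ground State Pluripotency, the state of condition 2. The other states also lay among themselves, with 92.4% (Naive Pluripotency) to 97.8% (Endoderm Progenitors) of neighbours in the own state. Clusters and map were drawn from the same expression values, so high shares follow in part from how they were made. Clusters 0 and 5 shared a border, and their centres were 3.40 map units apart. The centre of Ectoderm Priming was 4.21 units from cluster 0 and 4.19 from cluster 5. The 28 Mesoderm Progenitors, a small group of differentiating cells, lay 3.33 units from cluster 0 and 6.69 from cluster 5. Neighbours of cluster 0 cells were 97.3% cluster 0, and neighbours of cluster 5 cells were 93.6% cluster 5. Distances on such a map are not distances in expression.

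**Figure D1:**
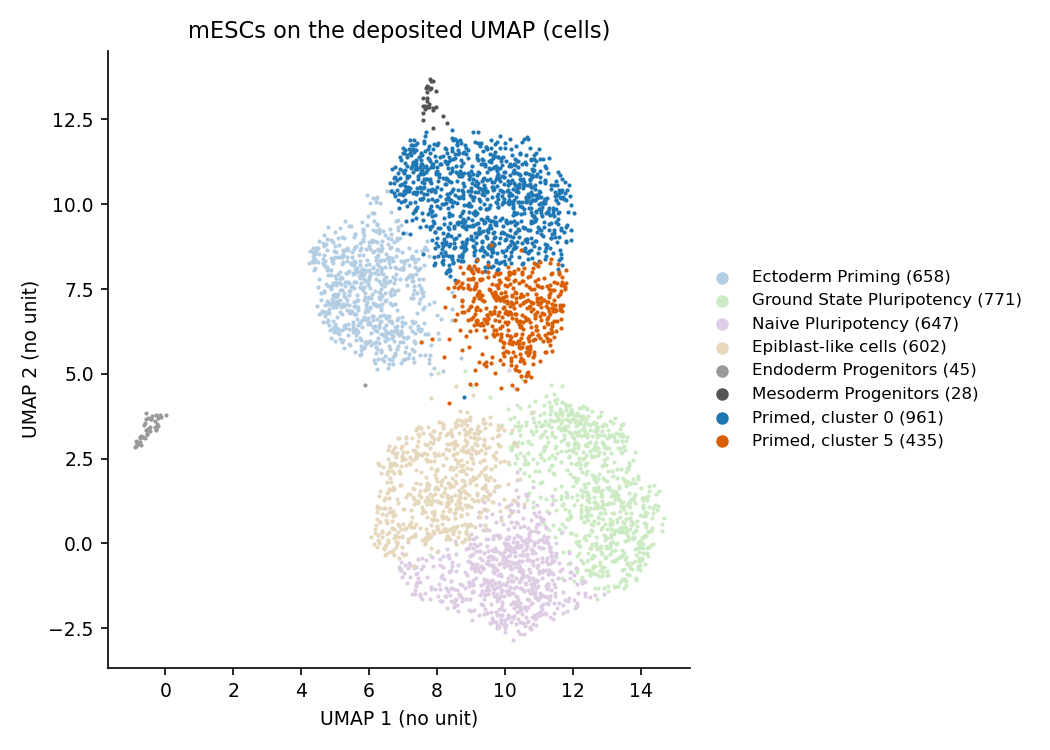
Position of every mESC on the deposited UMAP (both axes without unit), 1 point per cell. Cluster 0 (blue, 961 cells) and cluster 5 (orange, 435 cells) form 1 joined area with a border between them, beside the 658 pale blue Ectoderm Priming cells and apart from the states of the 2i conditions.

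The members from 2i differed from the rest in their neighbours. Of the 15 nearest neighbours of these 14 cells, 81.9% were members, 7.62% Epiblast-like cells, 5.71% Ground State cells and 3.81% Naive Pluripotency cells. For the 38 members of condition 1, 85.4% were members and 11.8% Ectoderm Priming cells. On plate 2 of condition 1, the 9 cluster 5 cells had 60.0% members and 37.0% Ectoderm Priming cells as neighbours. This was not so on plate 1 of condition 1, where all neighbours of the 6 cluster 5 cells were members and 5.33% of those of the 20 cluster 0 cells were Ectoderm Priming cells. With 1 to 20 cells of a cluster per plate, these shares describe single cells.

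Both conditions held both clusters. Cluster 5 made up 25.6% (92 of 359) and 21.7% (75 of 345) of the primed cells on the plates of condition 5, and 49.9% (172 of 345) and 23.7% (70 of 295) on those of condition 6. Only plate 1 of condition 6 stood apart. The mean was 13.1 percentage points higher in condition 6, with an exact two-sided permutation p of 0.667 over 2 plates against 2, and 0.0459 points higher without plate 1 of condition 6. When each plate's share was averaged over 5 equal classes of total counts, it was 27.7% and 23.3% in condition 5 and 41.7% and 30.5% in condition 6. At like counts the plates did not overlap, and the difference was 10.6 points (exact p = 0.33, the smallest that 2 against 2 plates allow). It was 5.01 points without plate 1 and 16.2 points without plate 2 of condition 6. Plate 2 of condition 6 held few primed cells of many counts, 14 from 15000 to 20000 and 2 at 20000 and over. The classes were cut over the plates together and weighed equally, so the 30.5% of this plate rests in part on few cells. Over all counts its share, 23.7%, lay between those of the plates of condition 5. The lack of overlap at like counts is therefore weakly based.

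Cluster 5 collected cells from both ends of the range of counts. When the primed cells of a plate were cut into 5 equal classes of total counts, the cluster 5 share on plate 1 of condition 5 went from 38.9% in the lowest class to 4.17%, 2.78%, 19.4% and 63.4% in the highest. On plate 2 of condition 5 it was 33.3%, 7.25%, 5.80%, 15.9% and 46.4%. The same shape was present in condition 6, where plate 1 gave 63.8%, 13%, 29.0%, 59.4% and 84.1%. Plate 2 of condition 6, the plate of fewest reads, gave 50.8%, 10.2%, 15.3%, 13.6% and 28.8%. In 4 of 4 plates the lowest and the highest class held a larger share than each of the 3 classes between, with 59 to 72 cells in a class.

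**Figure D2:**
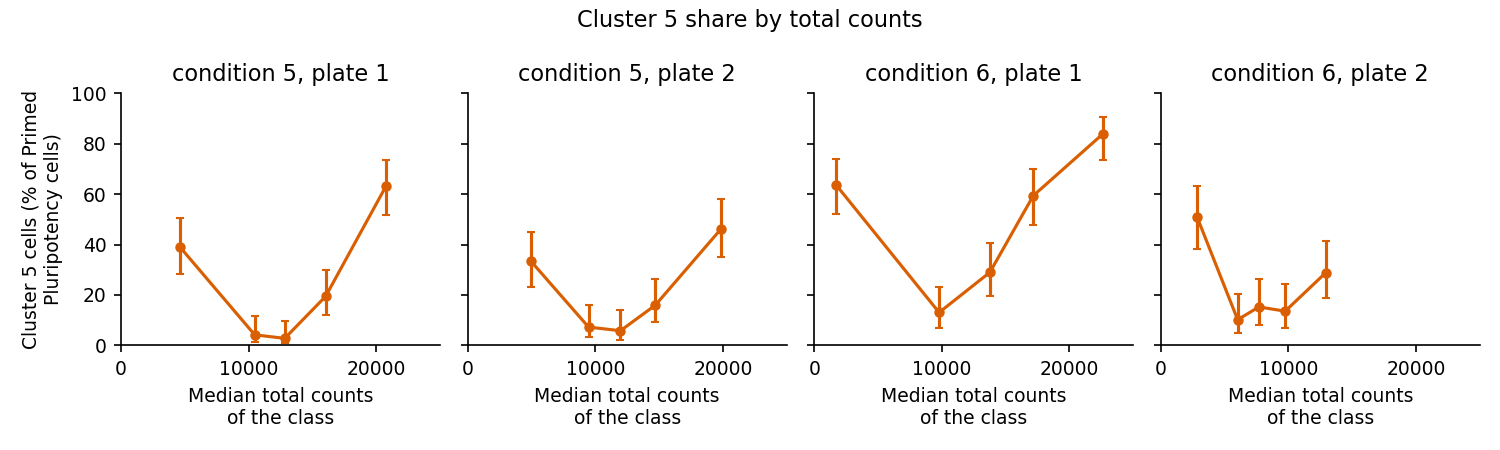
Share of cluster 5 among Primed Pluripotency cells (percent, y axis) in 5 equal classes of total counts, drawn at the class median (x axis, counts per cell), 1 panel per plate, with 95% Wilson intervals as bars. The share is higher in the lowest and in the highest class than in each class between on every plate. The fourth class of plate 1 of condition 6 still reaches 59.4%.

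Fixed ranges of counts gave the same picture over the 4 plates. Cluster 5 held 66.7% of members under 2500 counts (78 of 117, 57.7 to 74.6) and 48.8% from 2500 to 5000 (42 of 86, 38.6 to 59.2). From 5000 to 10000 it held 11.9% (39 of 329, 8.79 to 15.8), and from 10000 to 15000 it held 11% (46 of 420, 8.31 to 14.3). From 15000 to 20000 it held 38.4% (96 of 250, 32.6 to 44.6), and at 20000 and over 76.1% (108 of 142, 68.4 to 82.3). Per plate, the share from 5000 to 10000 counts was 6.45% to 19.0%, and under 2500 counts it was 54.5% to 80.8%. The authors had regressed the number of counts out before they clustered the cells.

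Cells of few and of many counts overlapped on the map within cluster 5. The median position of the 120 cluster 5 cells under 5000 counts on the plates of conditions 5 and 6 was 10.5 and 6.43 on the axes, and that of the 204 with 15000 counts and over was 10.3 and 7.21. Of the cluster 5 neighbours of the low-count cells, 38.8% had 15000 counts and over, against 49.9% of all cluster 5 cells on these plates. Low-count cells were also 42.2% of these neighbours, against 29.3% of all cluster 5 cells. Cells of few counts thus had more cells of few counts around them than their share, and were not in a group of their own.

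The cluster 5 share also differed with the number in the cell's name. On the plates of condition 5 it was 36.7% (66 of 180) in numbers 1 to 192 against 14.5% (26 of 179) in numbers 193 to 384 on plate 1, and 33.3% (57 of 171) against 10.3% (18 of 174) on plate 2. On those of condition 6 it was 63.1% (106 of 168) against 37.3% (66 of 177), and 31.7% (45 of 142) against 16.3% (25 of 153). Over the 4 plates it was 41.5% (274 of 661, 37.8 to 45.2) in the lower numbers and 19.8% (135 of 683, 17.0 to 22.9) in the upper numbers. The lower numbers held the larger share on every plate. This split was noticed after the values were seen, and no test was made of it.

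Along the numbers, the plates differed in where the share fell. In 8 equal stretches of numbers over the 4 plates, the share was 54.7%, 38.6%, 35.7% and 38.5% up to number 192, and 17.2%, 24.6%, 19.6% and 17.3% from 193 on. On 3 of 4 plates every stretch up to 192 lay above every stretch from 193 on. Among these, plate 1 of condition 5 declined gradually, with 41.7%, 36.2%, 28.9% and 17.8% from number 49 to 240. On plate 2 of condition 6 the main drop came after number 48, from 54.8% to 20%, and the stretch from 241 to 288 held 22.0%. Total counts did not show the same step, with medians of 11646 in the lower and 11517 in the upper numbers. They were lowest in numbers 1 to 48, at a median of 8601. At like counts, the lower numbers were ahead by 14.7, 21.2, 21.4 and 13.1 points on the 4 plates, and in 5, 4, 5 and 5 of the 5 classes.

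**Figure D3:**
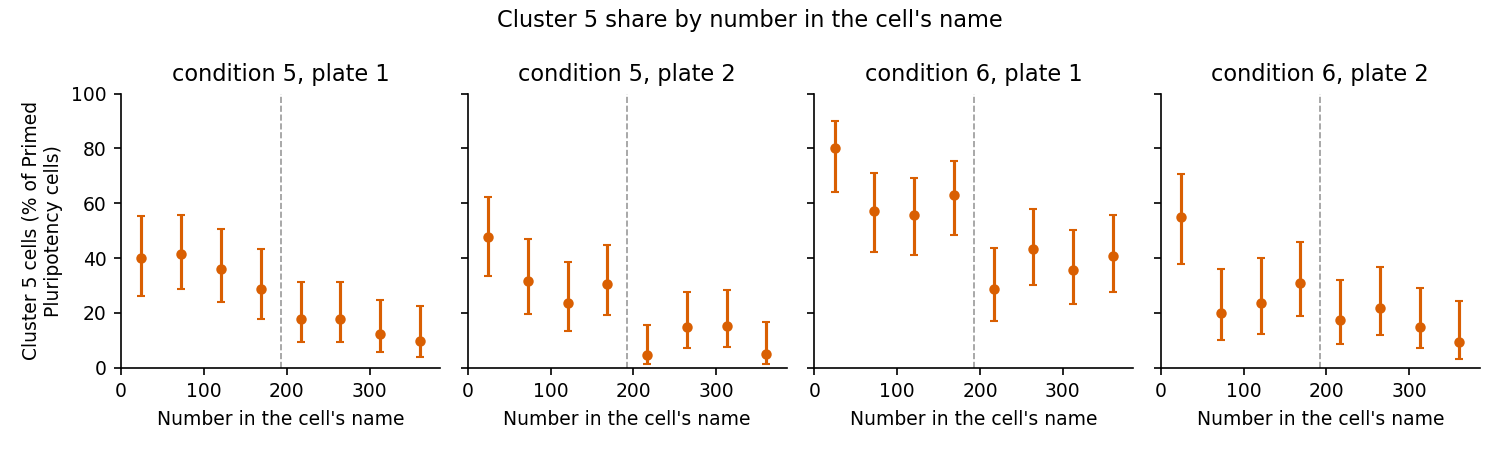
Share of cluster 5 among Primed Pluripotency cells (percent, y axis) in 8 equal stretches of the number in the cell's name (x axis), 1 panel per plate, with 95% Wilson intervals as bars and a dashed line between numbers 192 and 193. The 4 points left of the line are higher in the mean than the 4 to its right on every plate, with 41.5% against 19.8% of cells over the 4 plates.

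On the map, main-state cells in lower and upper numbers lay furthest apart on the plates of primed cells. The distance between the mean positions of main-state cells was 1.07 and 0.700 map units in condition 5 and 1.13 and 0.704 in condition 6. On the other 8 plates it was 0.113 to 0.632. The centres of clusters 0 and 5 lay 3.40 units apart, so a different cluster 5 share by itself moves the mean position. The main states of the other plates were a single cluster each and could not move in this way. The distances are therefore not a second result beside the share. The share of a plate's cells that were members was close in both, with 94.7% to 98.9% in the lower and 96.7% to 97.8% in the upper numbers. The number moved with the cluster of a primed cell, while the shares of members were close. What the number has to do with the cluster was not tested, and results on the 2 clusters are given with the upper numbers alone where the direction then turned.

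Cluster 5 cells had more counts than cluster 0 cells on 3 of 4 plates. Median total counts in clusters 0 and 5 were 12324 and 17878 on plate 1 and 11754 and 14174 on plate 2 of condition 5, and 12135 and 16968 on plate 1 of condition 6. On plate 2 of condition 6 the order was the other way, with 7887 and 6507. The log2 ratios of cluster 5 to cluster 0 were 0.54, 0.27, 0.48 and -0.28, with a mean of 0.25 ± 0.37 (SD, n = 4, exact sign-flip permutation p = 0.375). The mean was 0.43 without the plate of fewest reads, 0.16 without plate 1 of condition 5 and 0.18 without plate 1 of condition 6. The spread within cluster 5 was wide, since its quartiles ran from 4308 to 21687 counts on plate 1 of condition 5, against 9648 to 15064 in cluster 0.

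The clusters were drawn by the authors from the same transcriptomes that give the counts, genes and scores, so these comparisons describe the clusters and do not test them. Counts, mitochondrial percentage and cell cycle phase had been regressed out before clustering. Small differences in these values may therefore follow in part from how the clusters were made. With 4 plates the smallest possible p is 0.13, and none of the 15 comparisons of the 2 clusters could be called at an adjusted p under 0.05. Adjusted p-values ran from 0.583 to 0.750. The directions over plates are therefore what the values show.

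Genes detected followed total counts. The medians in clusters 0 and 5 were 4925 and 5824, 4765 and 5252, 4852 and 5539, and 3772 and 3371, in the order of the plates above. Log2 ratios had a mean of 0.10 ± 0.18 (SD, n = 4, exact sign-flip permutation p = 0.375). When each cluster 5 cell was matched to a cluster 0 cell of its plate with close counts, the mean log2 ratio of genes was -0.01. Within 5 classes of counts it was -0.25 ± 0.23 (SD, n = 4, exact p = 0.250), and it turned to 0.03 with 10 classes and to 0.01 in cells with at least 5000 counts. At like counts the clusters thus differed in genes in no stable direction.

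Among cells of few counts, the mitochondrial share differed between the clusters. In members under 5000 counts, the median share of mitochondrial reads in cluster 0 was 10.2% (12 cells) and 9.89% (16 cells) in condition 5, and 9.15% (22 cells) and 5.51% (33 cells) in condition 6. In cluster 5 it was 4.59% (25 cells), 4.98% (19 cells), 3.96% (42 cells) and 5.46% (34 cells). It was higher in cluster 0 on 3 of 4 plates. On these 3 plates the cluster 0 cells of this range also had fewer counts, with medians of 1070 against 2263, 1642 against 1971 and 1289 against 1745 in cluster 5. The range thus did not hold cells of equal counts, and the part of counts in the difference was not tested. On plate 2 of condition 6, where the cluster 0 cells had a median of 4070 counts against 1997 in cluster 5, the clusters were level.

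A mitochondrial share over 8%, a limit set after the values were seen, was present in 41.0% of cluster 0 cells under 5000 counts (34 of 83, 31.0 to 51.7) and in 5.00% of cluster 5 cells under 5000 counts (6 of 120, 2.31 to 10.5). In cells with 5000 counts and over it was rare in both clusters, with 0.822% (7 of 852) and 0.692% (2 of 289). From 5000 to 15000 counts the median mitochondrial share was 4.61%, 4.99%, 5.36% and 5.38% in cluster 0 and 3.84%, 5.29%, 5.50% and 5.71% in cluster 5. At 15000 counts and over it was 4.24%, 4.53%, 4.75% and 5.06% in cluster 0 and 4.32%, 4.51%, 4.73% and 5.52% in cluster 5. A low-count cell of high mitochondrial share was thus more often in cluster 0, and a low-count cell of ordinary mitochondrial share more often in cluster 5.

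**Figure D4:**
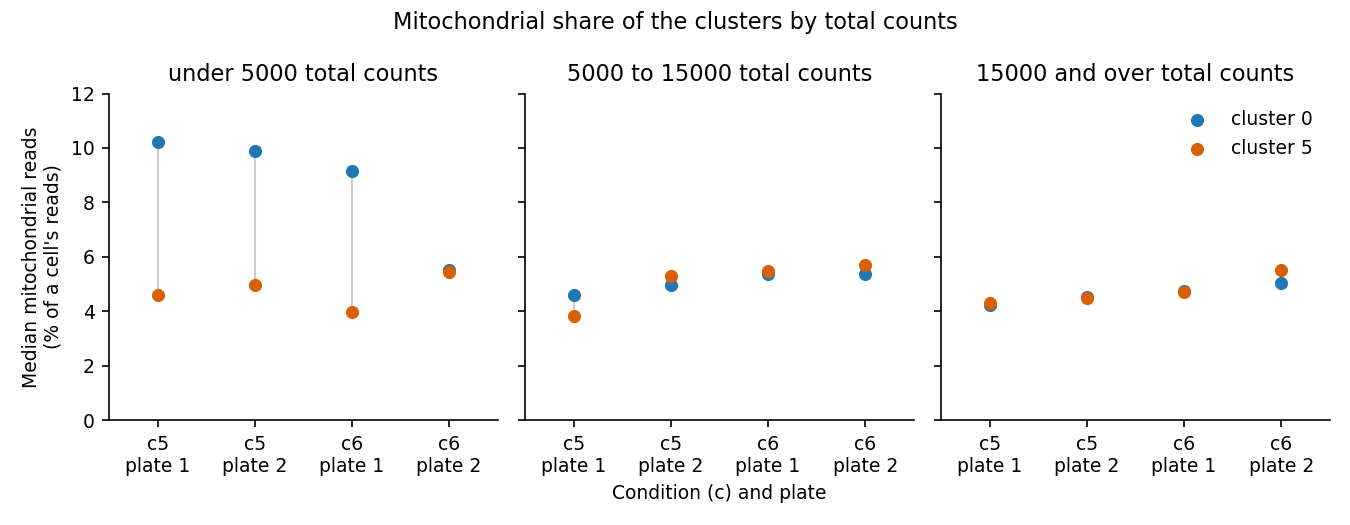
Median share of mitochondrial reads (percent of a cell's reads, y axis) in cluster 0 (blue) and cluster 5 (orange) on each plate of conditions 5 and 6 (x axis), in 3 ranges of total counts. Under 5000 counts, cluster 0 lies at 9.15% to 10.2% on 3 plates and at 5.51% on plate 2 of condition 6, and cluster 5 at 3.96% to 5.46%, while the clusters lie close together above 5000 counts.

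Over all counts, the median mitochondrial shares of clusters 0 and 5 were 4.53% and 4.35%, 4.88% and 4.88%, 5.24% and 4.63%, and 5.38% and 5.55%. The mean difference was -0.152 ± 0.33 percentage points (SD, n = 4, exact sign-flip permutation p = 0.500), and -0.00246 points without plate 1 of condition 6. At like counts it was -0.310 ± 0.640 points (SD, n = 4, exact p = 0.500), with the largest difference, -1.23 points, on plate 1 of condition 6 and a mean of -0.00375 points without that plate. The difference at like counts was -0.726 points with 10 classes, but only -0.00981 points with matched cells (exact sign-flip permutation p = 0.875). It turned to 0.177 points in cells with at least 5000 counts, and to 0.0331 points in the upper cell numbers.

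The S score, a value without unit for the genes of DNA replication, was higher in cluster 5 within the 5 classes of counts on all 4 plates, and the size of the difference varied with the setting. The differences within classes of counts were 0.00485 and 0.00133 in condition 5 and 0.0117 and 0.00486 in condition 6, with a mean of 0.00569 ± 0.00434 (SD, n = 4, exact sign-flip permutation p = 0.13, the smallest possible, adjusted p = 0.583). The mean was 0.00739 with matched cells and 0.0106 with 10 classes, but 0.00303 with 3 classes (exact p = 0.375), where not every plate had the same direction. It was 0.00403 with at least 1000 counts and 0.00537 with at most 20% mitochondrial reads (exact p = 0.250 for each), again without a common direction over plates, and 0.00368 without plate 1 of condition 6. In cells with 15000 counts and over, the median S score in clusters 0 and 5 was 0.0474 and 0.0555, 0.0455 and 0.0510, 0.0490 and 0.0539, and 0.0504 and 0.0579. The last pair rests on 9 and 7 cells. From 5000 to 15000 counts, cluster 5 was lower on plate 2 of condition 5, with 0.0657 in cluster 0 and 0.0595 in cluster 5. In that range it was higher in cluster 5 on the other plates. Without regard to counts the difference was only 0.00153 ± 0.00484 (SD, n = 4, exact p = 0.500), and it turned to -0.000833 in cells with at least 5000 counts and to -0.00133 in the upper cell numbers.

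The G2M score, the same kind of value for genes of mitosis, gave no common direction. Its median in clusters 0 and 5 was 0.0418 and 0.0501, 0.0448 and 0.0708, 0.0508 and 0.0499, and 0.0453 and 0.0422. The mean difference was 0.00757 ± 0.0133 (SD, n = 4, exact sign-flip permutation p = 0.500), and at like counts it was -0.00405 ± 0.0104 (SD, n = 4, exact p = 0.625). Cluster 5 was thus higher on the plates of condition 5 and lower on those of condition 6 before counts were taken into account.

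The deposited phase of all 1396 members followed from the scores, as G1 where both were below 0 and otherwise as the phase of the higher score. The S score was above 0 in 1380 members (98.9%). Phases therefore split the members almost wholly into S (761 cells, 54.5%) and G2M (629 cells, 45.1%), with 6 cells in G1 (0.430%, 0.197 to 0.935). The scores of 167 members (12%) lay within 0.01 of each other, close to the line between S and G2M. These phases are ranges of a score and give no measured share of cells in G1.

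Primed cells in G2M held more counts than primed cells in S. The median total counts were 11609 in S and 15162 in G2M on plate 1 of condition 5, and 11417 and 13493 on plate 2. In condition 6 they were 12867 and 15835 on plate 1 and 7046 and 8667 on plate 2. The ratio of the medians was 1.18 to 1.31 on these 4 plates and 1.17 to 1.35 in the main states of the other 8, so it was of like size in primed and other mESCs.

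The G2M share of primed cells rose over the upper classes of counts. On plate 1 of condition 5 it was 25%, 30.6%, 33.3%, 55.6% and 69.0% from the lowest to the highest class, and on plate 2 it was 40.6%, 31.9%, 37.7%, 47.8% and 69.6%. In condition 6 it was 50.7%, 36.2%, 30.4%, 47.8% and 76.8% on plate 1 and 35.6%, 33.9%, 40.7%, 49.2% and 57.6% on plate 2. The highest class held the largest G2M share on 4 of 4 plates. It also held the largest or second largest share of cluster 5, so that phase and cluster both moved with counts at the upper end.

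Between the clusters, the S share was 58.4% in cluster 0 and 53.3% in cluster 5 on plate 1 of condition 5, and 58.1% and 40% on plate 2. In condition 6 it was 50.9% and 51.7% on plate 1 and 55.1% and 61.4% on plate 2. The mean difference was -4.03 ± 10.5 percentage points (SD, n = 4, exact sign-flip permutation p = 0.750), and it turned to 0.676 without plate 2 of condition 5. At like counts the S share was 6.60 ± 12.1 points higher in cluster 5 (SD, n = 4, exact p = 0.500), but this value was not stable. It was 13.3 points with matched cells and 13.1 with 10 classes, 3.28 with 3 classes, 1.74 without plate 1 of condition 6, 11.6 without plate 2 of condition 5 and 0.788 in the upper cell numbers. The G2M share changed by the opposite amounts, by 4.36 ± 10.6 points over all counts (SD, n = 4, exact p = 0.750) and by -5.94 ± 12 points at like counts (SD, n = 4, exact p = 0.500), which was -1.22 without plate 1 of condition 6 and -0.570 in the upper cell numbers. The G1 share of cluster 5 was 0 on the 4 plates, where cluster 0 held 3 G1 cells among 935 and a count of 0 among 409 allows a share of up to 0.733%.

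Set beside the main state of each other condition, primed cells had the highest S scores. The median S score of primed cells was 0.0561 and 0.0589 in condition 5, and 0.0549 and 0.0600 in condition 6. The main states of conditions 1 to 4 were Ectoderm Priming, Ground State Pluripotency, Naive Pluripotency and Epiblast-like cells. Their medians ran from 0.0387 to 0.0487 over 8 plates, so that primed plates and other plates did not overlap. The mean over conditions was 0.0575 and 0.0574 against 0.0409 to 0.0468, a difference of 0.0132 (exact two-sided permutation p = 0.067 over 2 against 4 conditions, the smallest possible, adjusted p = 0.267). State and condition coincide almost wholly here and cannot be told apart.

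In a fixed range of counts, the S score was higher on 3 of the 4 primed plates than in the other states. Among cells with 8000 to 12000 counts, the median S score was 0.0662 and 0.0661 in condition 5 and 0.0634 and 0.0554 in condition 6, with 50 to 97 cells a plate. In the main states of the other conditions it was 0.0400 to 0.0606. Plate 2 of condition 6 lay inside this range, and the other 3 primed plates lay above it. In the same cells, the median G2M score of primed cells was 0.0316 to 0.0545, within the 0.0292 to 0.0596 of the other states.

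Primed cells also had a low mitochondrial share. Their medians were 4.50% and 4.88% in condition 5 and 4.97% and 5.48% in condition 6. The nearest state was Naive Pluripotency, with 5.31% and 5.15%, which the primed plates overlapped. Ectoderm Priming had 6.46% and 8.03%, Ground State Pluripotency 6.72% and 6.05%, and Epiblast-like cells 5.75% and 5.68%. The mean over conditions was 1.19 percentage points lower in primed cells (exact two-sided permutation p = 0.133, adjusted p = 0.356). Among cells with 8000 to 12000 counts, the primed medians were 4.58% to 5.29%, and those of Naive cells were 5.02% and 5.26%.

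**Figure D5:**
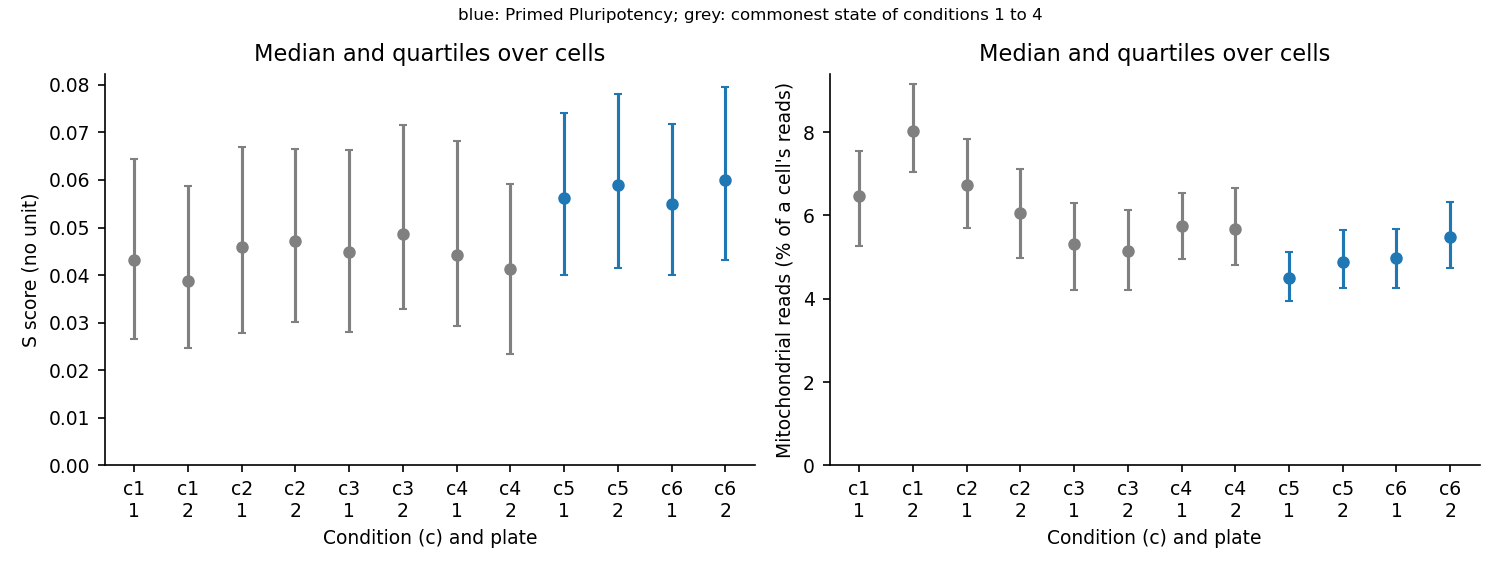
Median S score (left, no unit) and median share of mitochondrial reads (right, percent) with quartiles over cells as bars, for Primed Pluripotency cells (blue, conditions 5 and 6) and the commonest state of conditions 1 to 4 (grey), 1 point per plate. The primed S scores of 0.0549 to 0.0600 lie above the others at 0.0387 to 0.0487, while the primed mitochondrial shares of 4.50% to 5.48% overlap those of condition 3.

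Primed cells held many counts on 3 of 4 plates. Median total counts were 12807 and 11970 in condition 5 and 13766 and 7690 in condition 6. In the main states of the other 8 plates they were 6942 to 9569, apart from 12290 in the Epiblast-like cells on plate 1 of condition 4. The mean over conditions was higher by 2842 counts (exact two-sided permutation p = 0.067, adjusted p = 0.267) and by 661 genes (exact p = 0.200, adjusted p = 0.400). The difference in counts was 1323 without plate 1 and 4361 without plate 2 of condition 6. Sequenced reads differed as well, with 29120775 to 33416237 on the 3 primed plates of many counts and 8696308 on plate 2 of condition 6. The other 8 plates had 15111059 to 26111770 reads, apart from 33458578 on plate 2 of condition 3. The part of sequencing depth in the counts and genes was not tested. Among cells with 8000 to 12000 counts, median genes were 4500, 4489, 4486 and 4188 in primed cells and 4164 to 4459 in the others.

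Phase shares of primed cells were within those of the other states. The S share was 57.1% and 54.2% in condition 5 and 51.3% and 56.6% in condition 6, and 42.6% to 57.7% in the main states of the other plates. The lowest values were those of Ectoderm Priming, at 44.2% and 42.6%. The differences over conditions were 4.91 points for the S share (exact two-sided permutation p = 0.33), -4.43 points for the G2M share (exact p = 0.467), -0.482 points for the G1 share (exact p = 0.533) and 0.00212 for the G2M score (exact p = 0.60). The adjusted p was 0.533 or 0.60 for each of these.

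Few cells of conditions 5 and 6 were outside the primed state, 6 and 12 per plate in condition 5 and 14 and 12 per plate in condition 6. Of these 44 cells, 14 were Ectoderm Priming cells, 13 Endoderm Progenitors, 13 Mesoderm Progenitors, 3 Ground State cells and 1 an Epiblast-like cell. No Naive Pluripotency cell was among the 1388 cells of these 4 plates, which allows a share of up to 0.216%. Their median counts were 9180, 8755 and 9269 on 3 plates and 1954 on plate 2 of condition 6.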

How the data were processed

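Single cells of 6 mESC conditions (2 plates each) were sequenced with CEL-seq2. Per the submitters' processing notes and the paper, the authors trimmed reads with cutadapt 4.1, mapped them with STAR 2.5.3a to GRCm38 with masked strain differences, counted genes and removed duplicates. They kept cells with at least 500 reads, 100 genes and at most 40% mitochondrial reads, normalised to 500 transcripts per cell, regressed out counts, mitochondrial percentage and phase, and clustered with 30 principal components at a Leiden resolution of 0.5.

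The table deposited by the authors gives, for each cell, the total count and the number of genes without normalization, the mitochondrial fraction (multiplied here to percent), an S score and a G2M score without unit, phase, cluster and UMAP position. A deposited sequencing report gives the count of reads per library, of which 3 library names matched no sample and were not used. Some deposited names differ from the study's own and were matched by equal cell numbers. These are Shh Signalling (Ectoderm Priming), Core Pluripotency (Ground State Pluripotency) and Cell Cycle Arrest/Mesoderm Progenitors (Mesoderm Progenitors).

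Values were medians or shares per plate (Python 3.11.15, pandas 2.3.3, scipy 1.17.1). Clusters were compared on plates with at least 10 cells of each, over all counts and within 5 equal classes of counts holding at least 3 cells of each, with exact two-sided sign-flip permutation tests over plates. Conditions were compared with exact permutation tests, and p-values were adjusted by the Benjamini-Hochberg method over the measures of a family, with 0.05 as threshold. The share of cluster 5 was compared as plate values. Scripts were tested on simulated data. Without gene counts, no thinning to a common depth was done and doublets were not called. No gene was to be named with a value unless a file gave gene levels, and none did.

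Alternatives were a minimum of 1000 counts, a maximum of 20% mitochondrial reads, means, 5 or 20 cells per cluster and plate, 3 or 10 classes, matched cells (within 0.05 in log10 counts), 10 or 30 neighbours, all cells of the other conditions, a replicate block, and leaving out each plate. Cell numbers 193 to 384 and a minimum of 5000 counts were added after seeing the data. The members, tests and lists were chosen with earlier results of these data known.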

Additional observations from a re-analysis of the deposited data

Results flagged for a closer look

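In 3 measures of the cell cycle, cluster 5 differed from cluster 0 in opposite directions in conditions 5 and 6, on both plates of each. These are not separate results. Phase follows from the scores, and with few cells in G1 the S and G2M shares mirror each other. On plate 1 of condition 6 the differences were small, at -0.000945 for the G2M score and 0.877 points for the S share. The difference in the median G2M score, cluster 5 minus cluster 0, was 0.0172 in the mean of the plates of condition 5 and -0.00203 in that of condition 6. The difference in the S share was -11.7 percentage points in condition 5 and 3.60 points in condition 6. The difference in the G2M share was 12 points in condition 5 and -3.31 points in condition 6. The difference between the conditions was not tested. The plate values were not level within a condition, since the G2M share differed by 5.54 and 18.5 points on the plates of condition 5 and by -0.299 and -6.32 points on those of condition 6. At like counts the directions no longer separated the conditions, with -6.61, 9.21, -20.1 and -6.27 points on the 4 plates.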

How the results depend on the processing

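Of 344 alternative values over 26 results, 328 kept their direction, 16 turned in direction, and none passed the threshold. No p could pass it, since the smallest that these numbers of plates or conditions allow lie above 0.05. Staying on the same side of the threshold was therefore no test. Some of the 328 equal the main value by construction. These are the values with the replicate block, those with the larger minimum of cells, which kept the same plates, and phase shares under means. The 328 are thus not a count of separate checks. All 16 concerned cluster 5 minus cluster 0. With means in place of medians, the log2 ratio of genes was -0.0501 and the S score difference -1.93e-05. With at least 5 cells per cluster and plate, which adds plate 1 of condition 1 with 6 cluster 5 cells, the log2 ratio of counts was -0.018, that of genes -0.0768, the mitochondrial difference 0.521 points, the S share 4.11 points, the G2M share -3.84 points, and the log2 ratio of genes at like counts 0.0282. With 10 classes, that last ratio was 0.0302. In cell numbers 193 to 384, chosen after seeing the data, the S score difference was -0.00133 and the mitochondrial difference at like counts 0.0331 points. With at least 5000 counts, also chosen after seeing the data, the S score difference was -0.000833, the log2 ratio of genes at like counts 0.00794 and the mitochondrial difference at like counts 0.177 points. Leaving out each plate in turn gave S share differences from -7.48 to 0.676 points and G2M share differences from -0.359 to 7.92 points, both turned by leaving out plate 2 of condition 5. Apart from the settings that add or leave out cells or plates by construction, the cause was not tested.

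Plates share only the number of a technical replicate. With the number as a replicate block, the mean difference of the cluster 5 share between conditions 6 and 5 stays the same by construction. It was 13.1 points and 10.6 points at like counts (exact sign-flip permutation p = 0.500 for each, the smallest that 2 pairs allow), so no call could change. With 10 and 30 neighbours on the map, 98.7% and 98.6% of a member's neighbours were members. Depth limits what cells under 2500 counts can show, which were 10.3% of members, and the number of plates limits every p.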

Other observations

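Of the 14 members collected in 2i, the 11 in cluster 5 had a median of 748 counts and 3.99% mitochondrial reads, and the 3 in cluster 0 had 3041 counts and 10.1%. In condition 1, the median mitochondrial share was 7.46% in 20 cluster 0 members and 10.7% in 6 cluster 5 members on plate 1, and 10.2% in 3 cluster 0 members and 9.37% in 9 cluster 5 members on plate 2. The order of the clusters thus differed between these plates, and each of these comparisons rests on 3 to 6 cells of the rarer cluster. In 2i, 8 of the 11 cluster 5 members were in S, 1 in G2M and 2 in G1, which was 2 of the 6 G1 cells of the whole state.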
